A study of Mus musculus with 12 samples.

Results

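The proteasome is the protease complex that degrades proteins marked with ubiquitin. Most of the 31 genes described here encode constitutive subunits of its 20S core and 19S regulatory particle. Among them are also the tissue-restricted subunits Psma8 and Psmb11 and 3 chaperones that assemble the 19S base. The 31 members are the probe sets, among 16475, whose gene symbol is Psma, Psmb, Psmc or Psmd followed by a number, without the immunoproteasome subunits Psmb8, Psmb9 and Psmb10. The rule goes by symbol, so subunit genes with other symbols are left out. RefSeq lists 36 such mouse genes, and the 5 others, Psma3, Psma4, Psma5, Psmb3 and Psmb5, had no probe set under their symbol and were not analysed here. Total RNA of the mouse fibroblast line NIH 3T3 was read on 12 Affymetrix Mm430_2.0 arrays, 3 in each of 4 groups. The inducible cells, 3T3-ind-IER2 #11, carry a RheoSwitch construct for the immediate early protein IER2, which the synthetic ligand RSL is meant to switch on, and the parental cells are the 3T3 line they are compared with. Both were harvested 24 h after 200 nM RSL or the corresponding volume of its solvent DMSO, and the growth protocol gives G418 and hygromycin in the medium of all samples. The inducible cells are 1 clone, so that construct and clone cannot be told apart. The study used the arrays to profile inducible cells given RSL against controls, and the parental arrays are taken here as the background of the ligand.

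In the 20S core, outer rings of alpha subunits (Psma) gate a chamber formed by inner rings of beta subunits (Psmb), of which Psmb6 has the caspase-like and Psmb7 the trypsin-like active site. The 19S particle captures ubiquitylated proteins, removes the ubiquitin and threads the chain into the core with a ring of ATPases (Psmc), and the Psmd genes encode its remaining base and lid subunits. Cells are known to raise many of these genes together through the transcription factor NFE2L1 when proteolysis is blocked, and the complex turns over p53 and many cell cycle regulators. The arrays measure RNA only, so neither the amount nor the activity of the complex was read. Fewer transcripts per cell cannot be told apart from fewer cells expressing a gene.

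The arrays were alike in distribution, with medians of 7.03 to 7.06 on the log2 scale, and correlated over all probe sets at 0.9981 to 0.9992 within a group and 0.9913 to 0.9932 between the cell lines. Of 10 fibroblast markers, 9 lay above the array median on all 12 arrays and Lum lay below the first quartile. In contrast, 4 of 5 epithelial and 4 of 5 endothelial markers lay below the first quartile on all arrays. Of 7 macrophage markers, Csf1r and Cd14 lay above the median on all arrays and 2, among them Ptprc of all leukocytes, lay below the first quartile. Ier2, the gene carried by the construct, read 9.07, 9.04 and 8.96 in the inducible arrays labelled DMSO and 8.504, 8.48 and 8.66 in those labelled RSL. Its log2 fold change was -0.47 (limma adjusted p = 4.64e-05), against 0.17 in parental cells (adjusted p = 0.366). This direction goes against the labels of the inducible arrays. The sources do not say whether the probe set reads the construct's transcript, and the inducible groups are called by their labels throughout. Nothing in the labels says that the biological replicates came from separate cultures, and the p-values then cover only the variation among the arrays.

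The 12 genes whose call recurred in both comparisons of the cell lines, reported further on, include Psmd8, Psmd5, Psma7, Psmd12 and Psmd10, and the 250 bases before the annotated start of these 5 are shown because they had the smallest adjusted p-values under DMSO. The sequences are RefSeq's for GRCm38.p6, written 5′ to 3′ on the gene's strand, with matches to 4 motifs in capitals on either strand. The window of Psmd5 overlaps by a few bases the gene's coordinates, chr2:34852087-34870965. The motifs are the antioxidant response element core TGACNNNGC, to which NFE2L1 and its relatives bind with small MAF proteins, the CCAAT box, the GC box GGGCGG and the ETS site CCGGAA. A pair of GC boxes overlaps in Psma7, and no other matches overlap in these windows.
Psmd8 (chr7:29180674-29180923, - strand): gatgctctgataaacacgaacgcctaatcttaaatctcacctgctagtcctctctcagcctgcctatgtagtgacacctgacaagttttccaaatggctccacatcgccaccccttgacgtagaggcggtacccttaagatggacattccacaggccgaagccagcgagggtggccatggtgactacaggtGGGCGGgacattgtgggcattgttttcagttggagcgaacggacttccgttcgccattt
Psmd5 (chr2:34870963-34871212, - strand): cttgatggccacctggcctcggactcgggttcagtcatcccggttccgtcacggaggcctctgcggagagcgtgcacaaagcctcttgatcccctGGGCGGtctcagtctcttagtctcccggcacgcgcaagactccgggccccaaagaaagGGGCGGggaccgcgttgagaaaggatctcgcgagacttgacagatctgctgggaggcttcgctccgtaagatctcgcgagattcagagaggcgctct
Psma7 (chr2:180042465-180042714, - strand): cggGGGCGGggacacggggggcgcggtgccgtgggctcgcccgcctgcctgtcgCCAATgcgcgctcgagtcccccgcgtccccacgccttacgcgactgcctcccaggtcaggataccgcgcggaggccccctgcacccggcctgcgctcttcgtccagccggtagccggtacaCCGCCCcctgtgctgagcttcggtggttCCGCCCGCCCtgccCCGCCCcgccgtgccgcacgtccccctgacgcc
Psmd12 (chr11:107479278-107479527, + strand): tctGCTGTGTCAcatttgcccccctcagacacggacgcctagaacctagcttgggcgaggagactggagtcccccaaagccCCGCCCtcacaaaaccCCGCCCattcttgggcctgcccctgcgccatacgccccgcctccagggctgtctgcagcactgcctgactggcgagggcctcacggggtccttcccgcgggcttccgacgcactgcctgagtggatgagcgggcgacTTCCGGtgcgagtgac
Psmd10 (chrX:140956712-140956961, - strand): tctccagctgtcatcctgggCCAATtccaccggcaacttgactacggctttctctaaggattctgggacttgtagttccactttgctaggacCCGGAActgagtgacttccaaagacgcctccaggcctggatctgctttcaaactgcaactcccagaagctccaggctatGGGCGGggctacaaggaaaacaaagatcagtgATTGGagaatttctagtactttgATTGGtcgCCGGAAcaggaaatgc

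Psmd8 and Psmd5, of these the genes lower in the inducible cells, held 1 and 2 GC boxes and no match to the other motifs. Among the members higher in the inducible cells, Psma7 held 5 GC boxes and 1 CCAAT box. Psmd12 held the response element core, 2 GC boxes and 1 ETS site, and Psmd10 3 CCAAT boxes, 1 GC box and 2 ETS sites. Members called under neither treatment, such as Psma6, Psmc1 and Psmd4, also held ETS sites and CCAAT boxes. A link between motif and direction was not tested. A promoter window was found for 24 of the 31 members, 26 windows in all. The ETS site was in 50% of these windows and in 12% of all 32851 promoter windows of the same length. The GC box was in 61.5% and 32.7%, the CCAAT box in 38.5% and 33.8%, and the response element core in 15.4% and 10.2%. This background holds every promoter window, whatever its gene's level or base content. These shares are thus not shown to be particular to the subunit genes. The response element core was found before Psmb6, Psmc6, Psmd12 and Psmd9. A match describes letters in the window and is no evidence of binding.

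Most subunit genes gave a bright signal in every group. Probe sets differ in affinity, so the ranks that follow describe signal and do not order the genes by transcript number. Of the 31 members, 29 lay above the array median and 28 above the third quartile on all 12 arrays. The exceptions were the tissue-restricted subunits Psma8, the testis alpha subunit, and Psmb11, the catalytic subunit of thymic epithelium, both below the first quartile on every array. Psma8 lay between the 4.53 and 8.53 percentile of an array's probe sets, and Psmb11 between the 9.42 and 24.4 percentile. Psmd9, a chaperone of the base, was intermediate, between the 64.7 and 66.4 percentile, with a log2 level of 7.86 ± 0.023 (SD, n = 3) in the inducible cells under DMSO. The SD within groups, pooled over the 4 groups, ranged from 0.022 to 0.109 among the members with a median of 0.040, close to the 0.044 of all probe sets above the third quartile of mean level. The mean over the 31 members lay between 10.55 and 10.57 on the inducible arrays under DMSO, 10.56 and 10.59 on those labelled RSL. It lay between 10.48 and 10.54 on the parental arrays under DMSO and 10.47 and 10.51 under RSL. The 6 inducible arrays lay above the 6 parental arrays in this mean. The median over the members went the other way within each treatment, between 10.92 and 10.95 on the inducible arrays under DMSO, 10.93 and 10.94 on those labelled RSL, 10.99 and 11.05 on the parental arrays under DMSO and 10.94 and 10.96 under RSL. The mean and the median of the members thus differed in direction between the lines.

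**Figure D1:**
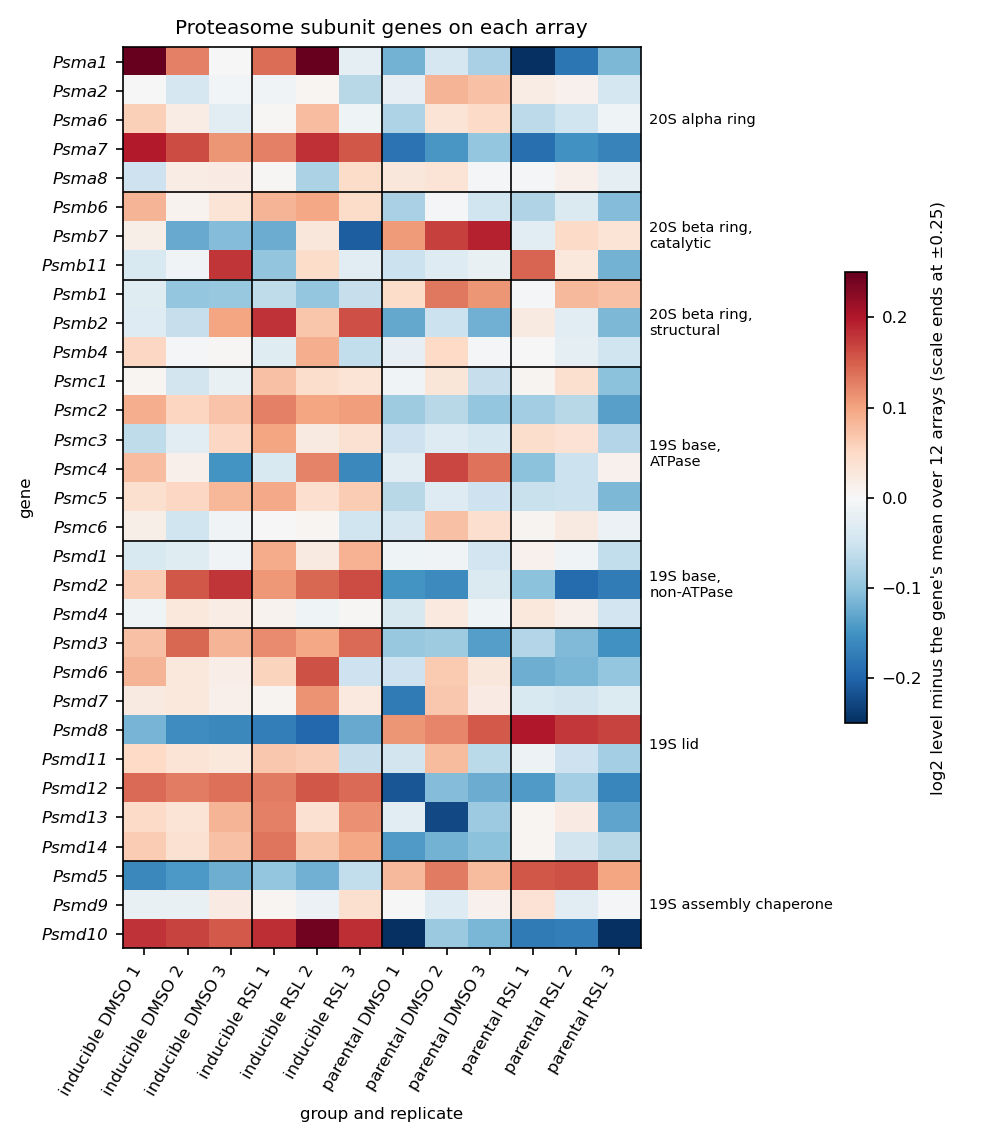
Log2 level of each of the 31 genes (rows, ordered by place in the complex) on each of the 12 arrays (columns, by group and replicate), as the difference from the gene's mean over the 12 arrays. The colour scale ends at ±0.25 log2 units, and a few arrays of genes such as Psma1 lie beyond it. Psma7 and Psmd12 are above their mean on the 6 inducible arrays, and Psmd8 and Psmd5 on the 6 parental arrays.

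No constitutive subunit gene was called between the arrays labelled RSL and DMSO in the inducible cells. The count was 0 of 31 at a limma adjusted p under 0.05, against a background of 2.54% of all 16475 probe sets and 3.96% of the 9885 above the lowest 40% of mean level. An unadjusted p under 0.05 was found for 2 members, or 6.45%, against 12.3% of all probe sets. The member log2 fold changes were positive in 20 and negative in 11. The positive share was 64.5%, against 52.2% of all probe sets and 49.8% of those above the lowest 40%. The changes ran from -0.07 to 0.13. Their median was 0.0065, beside 0.0027 over all probe sets and -0.0004 over those above the lowest 40%. That median moved to 0.0237 without inducible DMSO replicate 1, 0.0121, 0.0033 and 0.0253 without inducible RSL replicates 1, 2 and 3, 0.0014 after subtraction of array medians and 0.0167 after a repeated quantile normalization. Every member's 95% confidence interval lay between -0.20 and 0.23.

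Psmb2, a structural beta subunit, came nearest with a level of 10.42 ± 0.059 (SD, n = 3) on the arrays labelled RSL and 10.28 ± 0.085 on those labelled DMSO, with a difference of 0.13 (SE 0.047, limma adjusted p = 0.193). Psmd1, a large scaffold of the 19S base, read 11.30 ± 0.039 and 11.21 ± 0.015, a difference of 0.093 (95% interval 0.02 to 0.16, adjusted p = 0.204). The 3 members next by p were the ATPase genes Psmc1 at 0.071 and Psmc3 at 0.066 and the chaperone gene Psmd5 at 0.049, with adjusted p-values of 0.523, 0.587 and 0.65. In Psmc1, Psmc2, Psmd1, Psmd5 and Psmd10 the 3 arrays labelled RSL all lay above the 3 labelled DMSO, and in no member did they all lie below. These 5 are 16.1% of the members, against 18.1% of all probe sets whose groups of 3 did not overlap (9.34% above and 8.75% below).

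In parental cells, taken here as the ligand's background, 0 of 31 members were called between RSL and DMSO, where 0.0303% of all probe sets were, and 0.0506% of those above the lowest 40%. An unadjusted p under 0.05 was found for 3 members, or 9.68%, and for 9.71% of all probe sets. Psmd6, a lid subunit gene, read 10.61 ± 0.014 (SD, n = 3) under RSL and 10.74 ± 0.060 under DMSO, which is -0.13 on the log2 scale (SE 0.046, limma adjusted p = 0.419). Psmb7, the trypsin-like subunit, was at -0.14 (adjusted p = 0.428), and Psmd14, the deubiquitinase of the lid, at 0.084 (adjusted p = 0.44). Next were Psmc4 at -0.14 and Psmd8 at 0.053, also not called (adjusted p = 0.525 and 0.583). The arrays of the treatments did not overlap in 4 members, Psmd14 and Psmd8 above and Psmd6 and Psmb7 below under RSL, or 12.9% against 13.3% of all probe sets (7.12% above and 6.15% below). The member median was -0.019, beside 0.0070 over all probe sets and -0.0049 over those above the lowest 40%, and its sign turned to 0.0081 when the quantile normalization was repeated. It was -0.0317, -0.0007 and -0.0118 without parental DMSO replicates 1, 2 and 3 and -0.0087 without parental RSL replicate 3. The log2 fold changes were positive in 11 members and negative in 20. The positive share was 35.5%, against 55.6% of all probe sets and 46.5% of those above the lowest 40%.

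The difference between the RSL effects of the lines was called for 0 of 31 members, against 0.662% of all probe sets and 1.05% of those above the lowest 40%. No member had an unadjusted p under 0.05, against 9.07%. The smallest p was that of Psmd6, with a difference of 0.14 on the log2 scale (95% interval -0.001 to 0.28, adjusted p = 0.554 from limma). Psmd1 and Psmb7 had differences of 0.091 and 0.11, and Psmd8 and Psmb11 of -0.074 and -0.12, with adjusted p-values of 0.6, 0.727, 0.686 and 0.75. The member median was 0.031, beside -0.0041 over all probe sets and 0.0059 over those above the lowest 40%. It ranged from 0.0185 with a repeated quantile normalization to 0.0520 without parental DMSO replicate 1. Its sign rests on the treatment labels of the inducible arrays, against which Ier2 goes. The 95% intervals of the differences lay between -0.31 and 0.34, wider than those of either effect. The differences were positive in 25 members and negative in 6. The positive share was 80.6%, against 47.3% of all probe sets and 53% of those above the lowest 40%. Members share arrays and normalization, so their signs are not independent, and this share was not tested. These signs rest on the treatment labels as well.

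**Figure D2:**
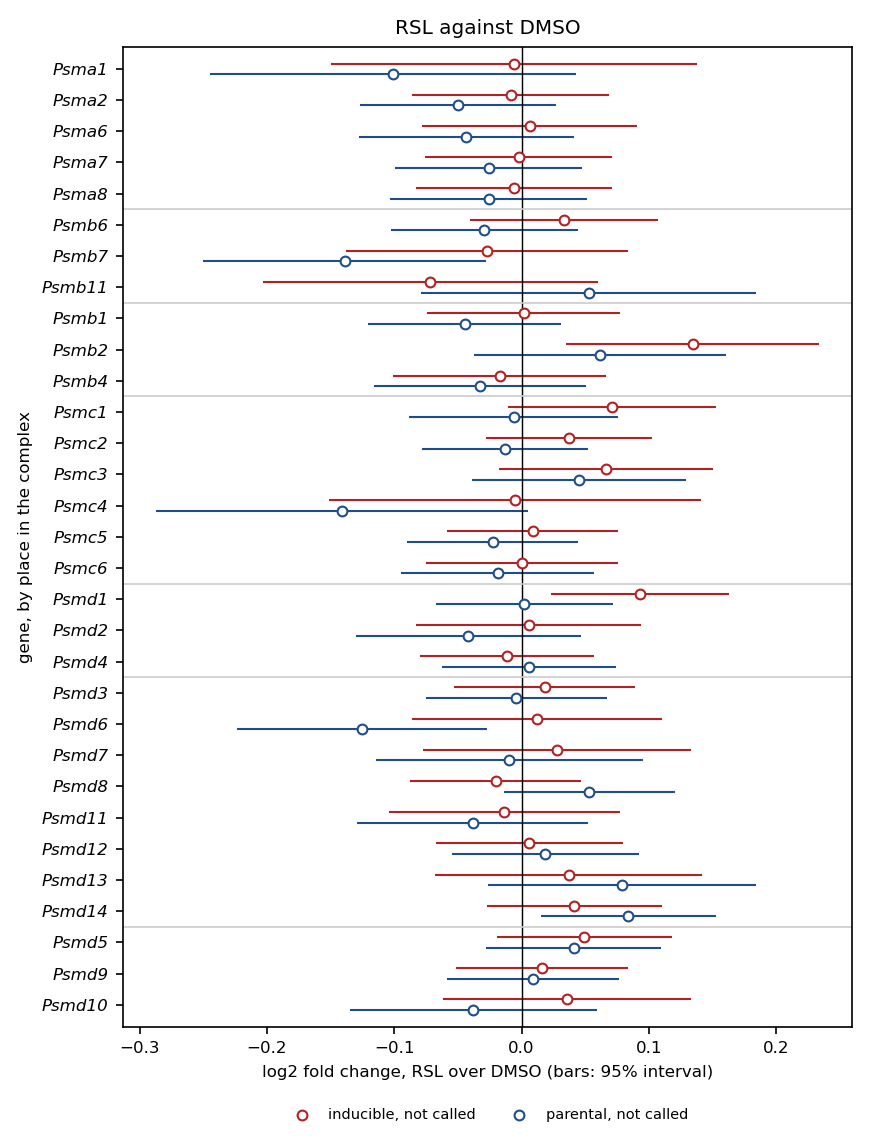
Log2 fold change of the arrays labelled RSL over DMSO for each of the 31 genes (rows, by place in the complex) in the inducible cells and in the parental cells, with 95% confidence intervals from limma as bars. Open points are not called, and none of the 31 genes was called in either line.

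Between the cell lines, by contrast, 14 of 31 subunit genes differed under DMSO and 16 of 31 under RSL, with individual genes moving in both directions. Under DMSO 10 were higher and 4 lower in the inducible cells, where 15.2% and 14.5% of all probe sets were. Under RSL 13 were higher and 3 lower, against 17.5% and 16.8%. Of the 9885 probe sets above the lowest 40% of mean level, 2253 were higher and 2142 lower under DMSO, and 2588 and 2257 under RSL. The shares were 45.2% and 51.6% of the members, against 29.7% and 34.2% of all probe sets, and against 44.5% and 49% of the 9885 probe sets above the lowest 40% of mean level, so the members were called about as often as other expressed genes. The median log2 fold change of the members was 0.029 under DMSO and 0.073 under RSL, beside -0.0067 and -0.018 over all probe sets and 0.0006 and 0.0002 over those above the lowest 40%. A repeated quantile normalization lowered the median under RSL to 0.0465. Leaving out single arrays moved the median under DMSO between 0.0052 without parental DMSO replicate 1 and 0.054 without parental DMSO replicate 2. The 12 members called in the same direction under both treatments, in arrays that the 2 comparisons do not share, were 38.7% of the members, against 23.4% of all probe sets and 35.8% of those above the lowest 40%. They make up 85.7% of the members called under DMSO and 75% of those called under RSL, with 9 higher and 3 lower in the inducible cells, against 12.3% and 11.1% of all probe sets. The other calls, of Psmb7 and Psmd13 under DMSO and Psmb6, Psmb2, Psmd1 and Psmd6 under RSL, are not shown to differ between treatments, since the difference of the RSL effects was called for none of them. Over all 12 arrays, with no use of the treatment labels, the 6 inducible arrays lay above the 6 parental ones in 11 members and below them in 3, or 45.2% of the members against 25.2% of all probe sets and 38.1% of those above the lowest 40%. These members include all 12 called under both treatments.

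**Figure D3:**
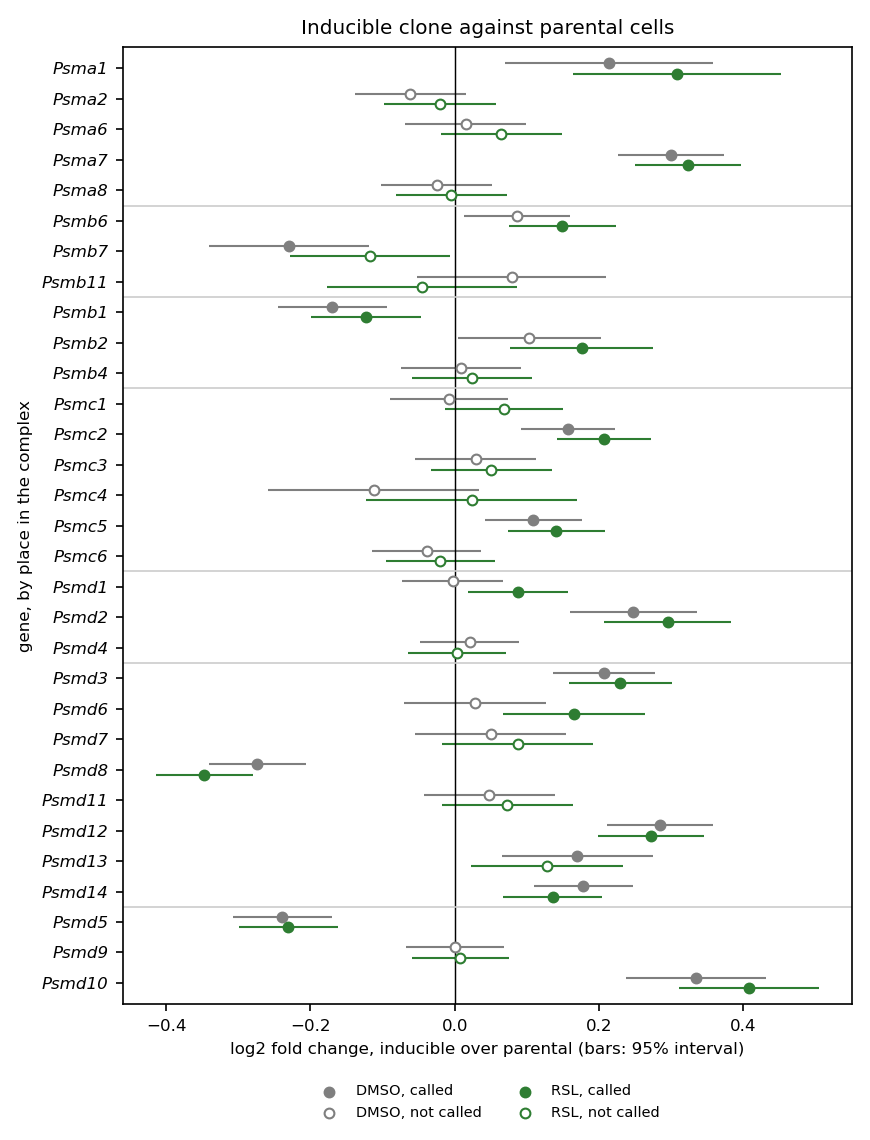
Log2 fold change of the inducible over the parental cells for each of the 31 genes (rows, by place in the complex), with 95% confidence intervals from limma, under DMSO (grey) and RSL (green). Filled points are called, 14 under DMSO and 16 under RSL, and Psmd8 and Psmd5 lie to the left of 0 while Psma7, Psmd12 and Psmd10 lie to the right.

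The differences that follow are log2 fold changes of the inducible over the parental cells, under DMSO and then under RSL, and gene coordinates are RefSeq's for GRCm38.p6. In the alpha ring, Psma7 and Psma1 were called higher in the inducible cells under both treatments, and Psma2, Psma6 and Psma8 were not called. Psma7 (chr2:180036367-180042464) read 11.81, 11.78 and 11.72 on the inducible arrays labelled DMSO and 11.74, 11.80 and 11.77 on those labelled RSL. Parental Psma7 read 11.43, 11.47 and 11.52 under DMSO and 11.43, 11.46 and 11.45 under RSL. All 6 inducible arrays lay above all 6 parental arrays, with a log2 fold change of 0.30 (SE 0.035, limma adjusted p = 4.57e-06) under DMSO, or 1.23-fold, and 0.32 (SE 0.035, adjusted p = 1.69e-06) under RSL, or 1.25-fold. Psma8, its testis paralog, had -0.025 and -0.0046 (adjusted p = 0.694 and 0.94) at levels below the first quartile. Psma1 (chr7:114264550-114276116) read 11.42, 11.27 and 11.14 on the inducible arrays labelled DMSO and 11.28, 11.41 and 11.12 on those labelled RSL. Parental Psma1 read 11.03, 11.10 and 11.06 under DMSO and 10.89, 10.96 and 11.03 under RSL. The lines did not overlap, but the inducible arrays spread widely, and the log2 fold change was 0.21 (SE 0.068, adjusted p = 0.0243) under DMSO and 0.31 (SE 0.068, adjusted p = 0.00191) under RSL. The call under DMSO was lost without inducible DMSO replicate 1 (0.148), inducible DMSO replicate 2 (0.0563), parental DMSO replicate 1 (0.0717) or parental DMSO replicate 3 (0.0586), with the adjusted p in brackets. Psma2 and Psma6 had log2 fold changes of -0.061 and 0.015 under DMSO and -0.020 and 0.065 under RSL, none called.

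In the beta rings, the active-site subunits Psmb6 and Psmb7 were each called under 1 treatment, in opposite directions. The catalytic subunit gene Psmb5 had no probe set under its symbol. Psmb6 had 0.087 under DMSO (adjusted p = 0.0731) and 0.15 (SE 0.035, adjusted p = 0.0029) under RSL, and its 6 inducible arrays lay above the 6 parental arrays. Psmb7 was lower in the inducible cells under DMSO, at 10.84 ± 0.077 against 11.07 ± 0.045 (SD, n = 3), or -0.23 (SE 0.052, adjusted p = 0.00266) on the log2 scale, and had -0.12 under RSL (adjusted p = 0.0951). Their immunoproteasome counterparts, which replace them after interferon, were not called between the lines: Psmb9 had 0.060 and 0.028 and Psmb10 -0.077 and 0.096 under DMSO and RSL. Psmb1 (chr17:15475721-15498276), a structural subunit, read 11.42, 11.35 and 11.35 on the inducible arrays labelled DMSO and 11.39, 11.35 and 11.39 on those labelled RSL. Parental Psmb1 read 11.50, 11.58 and 11.56 under DMSO and 11.45, 11.53 and 11.52 under RSL. It was lower on all 6 inducible arrays, at -0.17 (SE 0.036, adjusted p = 0.00146) under DMSO and -0.12 (SE 0.036, adjusted p = 0.0131) under RSL. The call under RSL was lost without inducible RSL replicate 2 (0.0529) or parental RSL replicate 2 (0.0567), with the adjusted p in brackets. Psmb2 had 0.10 under DMSO, not called (adjusted p = 0.115), and 0.18 (SE 0.047, adjusted p = 0.00724) under RSL, while Psmb4 had 0.0085 and 0.024 and Psmb11 0.079 and -0.045, none of them called.

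Of the 6 ATPases that unfold substrates, Psmc2 and Psmc5 were called higher in the inducible cells under both treatments, and Psmc1, Psmc3, Psmc4 and Psmc6 under neither. Psmc2 (chr5:21785275-21803787) read 11.70, 11.66 and 11.68 on the inducible arrays labelled DMSO and 11.73, 11.70 and 11.71 on those labelled RSL. Parental Psmc2 read 11.52, 11.54 and 11.51 under DMSO and 11.52, 11.54 and 11.47 under RSL. The lines did not overlap, and the log2 fold change was 0.16 (SE 0.031, adjusted p = 8.21e-04) under DMSO and 0.21 (SE 0.031, adjusted p = 5.51e-05) under RSL. Psmc5 (chr11:106256185-106263112) read 10.83, 10.84 and 10.87 on the inducible arrays labelled DMSO and 10.88, 10.83 and 10.85 on those labelled RSL. Parental Psmc5 read 10.72, 10.76 and 10.74 under DMSO and 10.73, 10.74 and 10.68 under RSL. Its 6 inducible arrays also lay above the 6 parental ones, by 0.11 (SE 0.032, adjusted p = 0.0141) and 0.14 (SE 0.032, adjusted p = 0.00228). The call of Psmc5 under DMSO was lost without inducible DMSO replicate 3 (adjusted p = 0.0584). Psmc4 had the largest spread within groups of the members, an SD of 0.11, and log2 fold changes of -0.11 and 0.024.

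In the rest of the 19S base, Psmd2, the scaffold that receives shuttle factors, was higher in the inducible cells under both treatments. Psmd1 was called under RSL, and the ubiquitin receptor gene Psmd4 was not called. Psmd2 (chr16:20651122-20663414) read 10.68, 10.78 and 10.80 on the inducible arrays labelled DMSO and 10.73, 10.76 and 10.78 on those labelled RSL. Parental Psmd2 read 10.47, 10.46 and 10.59 under DMSO and 10.52, 10.43 and 10.45 under RSL. No inducible array overlapped a parental one, and the log2 fold change was 0.25 (SE 0.042, adjusted p = 1.99e-04) under DMSO and 0.30 (SE 0.042, adjusted p = 3.22e-05) under RSL, or 1.19-fold and 1.23-fold. Psmd1 had -0.0029 under DMSO and 0.088 under RSL (adjusted p = 0.0497), and Psmd4 0.021 and 0.0036. The call of Psmd1 was lost without inducible RSL replicate 1 (0.164), inducible RSL replicate 3 (0.119), parental RSL replicate 2 (0.078) or parental RSL replicate 3 (0.178), with the adjusted p in brackets. It was also lost with a repeated quantile normalization (0.167), with the 6 arrays under RSL fitted alone (0.0954) and with the replicate number as a block (0.0704).

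In the lid, the class with the most members, 5 of 8 genes were called under each treatment, or 62.5%, beside 44.5% and 49% of the probe sets above the lowest 40%. Under both treatments Psmd3, Psmd12 and Psmd14 were higher and Psmd8 was lower. Psmd8 (chr7:29174187-29180673), a lid subunit, read 10.81, 10.78 and 10.77 on the inducible arrays labelled DMSO and 10.76, 10.74 and 10.80 on those labelled RSL. Parental Psmd8 read 11.04, 11.05 and 11.08 under DMSO and 11.13, 11.11 and 11.10 under RSL. It was lower on every inducible array, with a log2 fold change of -0.27 (SE 0.032, limma adjusted p = 4.49e-06) under DMSO, or 0.827 times the parental level, and -0.35 (SE 0.032, adjusted p = 2.73e-07) under RSL, or 0.786 times. Psmd12 (chr11:107479528-107498036), another lid subunit, read 11.69, 11.68 and 11.69 on the inducible arrays labelled DMSO and 11.68, 11.71 and 11.69 on those labelled RSL. Parental Psmd12 read 11.34, 11.44 and 11.43 under DMSO and 11.41, 11.47 and 11.39 under RSL. The inducible arrays lay above the parental arrays throughout, by 0.28 (SE 0.035, adjusted p = 8.05e-06) under DMSO, or 1.22-fold, and 0.27 (SE 0.035, adjusted p = 1.14e-05) under RSL. Psmd3 (chr11:98682554-98695978), also of the lid, read 10.72, 10.78 and 10.73 on the inducible arrays labelled DMSO and 10.76, 10.74 and 10.78 on those labelled RSL. Parental Psmd3 read 10.55, 10.55 and 10.50 under DMSO and 10.57, 10.53 and 10.49 under RSL. The lines were again apart, by 0.21 (SE 0.033, adjusted p = 1.37e-04) and 0.23 (SE 0.033, adjusted p = 4.45e-05). Psmd14 (chr2:61711694-61800376), the metalloprotease that cuts ubiquitin chains from substrates, read 11.19, 11.17 and 11.20 on the inducible arrays labelled DMSO and 11.26, 11.20 and 11.23 on those labelled RSL. Parental Psmd14 read 10.99, 11.01 and 11.03 under DMSO and 11.13, 11.08 and 11.06 under RSL. Its log2 fold changes were 0.18 (SE 0.032, adjusted p = 3.95e-04) and 0.14 (SE 0.032, adjusted p = 0.00338), without overlap of the lines. Psmd13 was called under DMSO, at 0.17 (SE 0.050, adjusted p = 0.0145), and had 0.13 under RSL (adjusted p = 0.0562), while Psmd6 had 0.028 under DMSO and 0.17 (SE 0.046, adjusted p = 0.0101) under RSL. Psmd13 lost its call without inducible DMSO replicate 3 (0.0552) or parental DMSO replicate 2 (0.0887), and Psmd6 without inducible RSL replicate 2 (0.0667), with the adjusted p in brackets. Psmd7, the inactive partner of Psmd14, and Psmd11 had 0.050 and 0.048 under DMSO and 0.087 and 0.073 under RSL, none called.

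The 3 chaperones, which bind ATPases during assembly of the base and leave before the complex is complete, went in different directions. Psmd10 (chrX:140948425-140956711), also known as gankyrin and as a partner of the p53 ligase MDM2, read 9.18, 9.17 and 9.15 on the inducible arrays labelled DMSO and 9.18, 9.24 and 9.18 on those labelled RSL. Parental Psmd10 read 8.71, 8.91 and 8.89 under DMSO and 8.82, 8.83 and 8.74 under RSL. It was higher on every inducible array, with 0.33 (SE 0.046, adjusted p = 2.72e-05) under DMSO, or 1.26-fold, and 0.41 (SE 0.046, adjusted p = 2.82e-06) under RSL, or 1.33-fold, the largest log2 fold changes among the members called. Psmd5 (chr2:34852087-34870965) read 10.25, 10.27 and 10.29 on the inducible arrays labelled DMSO and 10.32, 10.29 and 10.35 on those labelled RSL. Parental Psmd5 read 10.50, 10.55 and 10.49 under DMSO and 10.57, 10.57 and 10.51 under RSL. It was lower on every inducible array, at -0.24 (SE 0.033, adjusted p = 2.52e-05) under DMSO, or 0.847 times the parental level, and -0.23 (SE 0.033, adjusted p = 3.22e-05) under RSL. Psmd9 was at 0.0006 and 0.0078 and was not called.

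**Figure D4:**
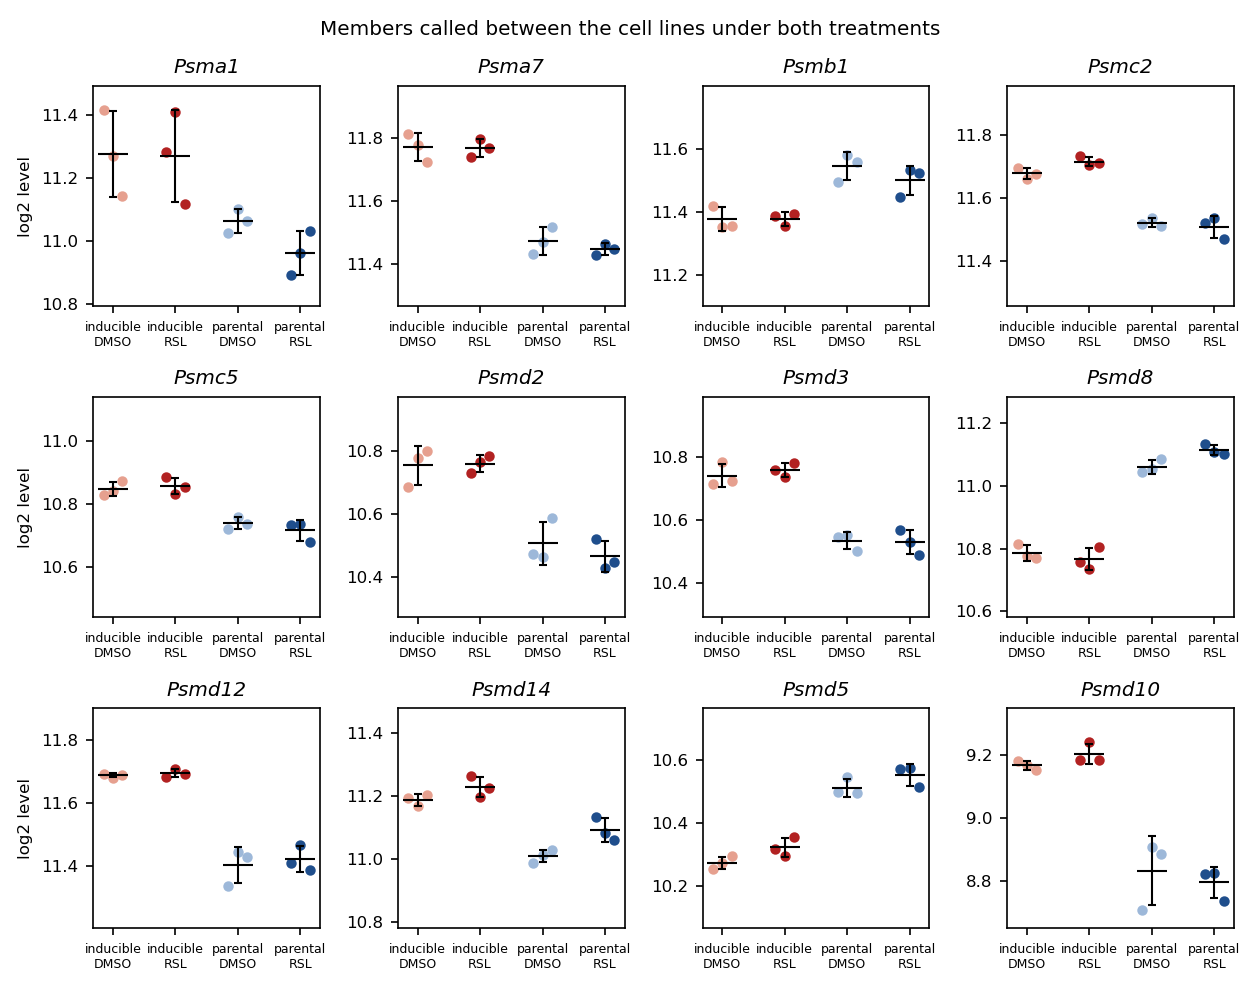
Log2 level of the 12 genes called between the cell lines under both treatments, 1 panel a gene, with each array as a point, the group mean as a line and the SD of 3 arrays as a bar. Every panel spans the same height of log2 units. The 6 inducible arrays lie above the 6 parental arrays in 9 panels and below them in the panels of Psmb1, Psmd8 and Psmd5.

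Within groups, some members deviated from the group mean together. Over the 12 arrays, the median correlation of these deviations was 0.505 among 9 genes of the 20S core, 0.25 among 17 genes of the 19S particle and 0.16 between the particles. Psma1, Psma6, Psmb7, Psmc4 and Psmd6, chosen after their values were seen, had pairwise correlations of 0.767 to 0.927. The highest pairs were Psmc1 with Psmc2 at 0.958, and Psma2 with Psmc6 and Psmc3 with Psmc5 at 0.939. The points share arrays and their normalization, so these correlations are a description of 12 arrays. Correlations with genes outside the members were not computed, so the pattern is not shown to be particular to the subunit genes. In every group the replicates of Vim, a fibroblast marker singled out from its list, ranked in the same order as those of Psma1. Those of the markers Col1a1 and Fn1 ranked otherwise on the inducible arrays labelled RSL. Vim read 12.95, 12.90 and 12.73 on the inducible arrays labelled DMSO and 12.76, 12.96 and 12.67 on those labelled RSL.

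Of 50 other genes of the pathway that were listed, 38 had a probe set, and of these 1 was called between RSL and DMSO in the inducible cells, 0 in parental cells and 0 for the difference. Between the lines 20 were called under DMSO (15 higher, 5 lower) and 18 under RSL (14 higher, 4 lower). These are 52.6% and 47.4% of the 38, near the 44.5% and 49% of all probe sets above the lowest 40%. The RSL call was Psmb10, the interferon-inducible counterpart of Psmb7, at 0.14 on the log2 scale (limma adjusted p = 0.0483). Leaving out any inducible array but RSL replicate 2 ended that call, with adjusted p-values of 0.117, 0.262 and 0.0576 without DMSO replicates 1, 2 and 3 and 0.226 and 0.140 without RSL replicates 1 and 3.

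Among the activators that cap the core, Psme1 and Psme2, which form the interferon-inducible cap, were lower in the inducible cells, at -0.33 and -0.33 under DMSO (adjusted p = 1.99e-04 and 4.78e-06 from limma) and -0.15 and -0.17 under RSL (0.047 and 0.00185). The nuclear activator gene Psme3 was higher, at 0.22 and 0.22, and Psme4 at 0.10 and 0.14. Psme1 lost its call under RSL without inducible RSL replicate 1 (adjusted p = 0.288), or parental RSL replicates 1 (0.171) or 3 (0.122). Psme4 lost its call under DMSO without inducible DMSO replicates 1 (0.158) or 2 (0.197) or parental DMSO replicates 1 (0.135) or 2 (0.110). Of the proteins that visit the 19S particle, the deubiquitinase gene Usp14 was higher, at 0.24 and 0.30, as was the adaptor gene Ecpas, at 0.28 and 0.35. The 20S assembly chaperone gene Psmg1 was higher, at 0.16 and 0.15, the second of these losing its call without inducible RSL replicate 1 (adjusted p = 0.0607). Pomp, which matures the beta subunits, was not called, at 0.041 and 0.028.

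Nfe2l1 itself was higher in the inducible cells, at 0.18 under DMSO and 0.17 under RSL (adjusted p = 9.03e-04 and 9.82e-04). So were Mafg, which encodes a small MAF partner, at 0.26 and 0.27, and Bach1, which encodes a competitor for the same sites, at 0.25 and 0.24. Maff was higher under DMSO, at 0.26, and had 0.043 under RSL, with a difference of the RSL effects of -0.22 that was not called (adjusted p = 0.0957). None of these genes was called between RSL and DMSO in either line. Of 9 listed genes for the control by NFE2L1, Ddi2 had no matching probe set. Of the other 8, 5 were called between the lines under DMSO and 3 under RSL. These are 62.5% and 37.5%, beside 44.5% and 49% of the probe sets above the lowest 40%. Nfe2l2 went the other way, at -0.092 and -0.059, and was not called. Ngly1 and Syvn1 were not called under either treatment. Around the p97 unfoldase, which hands substrates to the proteasome, the cofactor genes Ufd1 (0.30 and 0.40), Nploc4 (0.29 and 0.25) and Faf1 (0.21 and 0.16) were higher and Faf2 (-0.23 and -0.29) was lower under both treatments. Ubxn1 and Ubxn4 were not called. Vcp, the gene of p97 itself, and Nsfl1c had no matching probe set. The shuttle factor genes, whose products bring ubiquitylated proteins to the complex, went both ways. Ubqln4 was lower, at -0.24 and -0.29, and Ubqln1 under DMSO, at -0.12, while Rad23b was higher, at 0.20 and 0.18, as was Zfand5, at 0.11 and 0.21. Of these, Ubqln4 under both treatments and Zfand5 under RSL kept the call with each single array left out. Rad23b lost it under DMSO without inducible DMSO replicates 1 (adjusted p = 0.0890) or 2 (0.0794) or parental DMSO replicate 1 (0.0608). Under RSL Rad23b lost it without replicates 1 or 2 of the inducible (0.104 each) or of the parental arrays (0.112 and 0.140). Zfand5 lost it under DMSO without inducible DMSO replicate 2 (0.0775) or parental DMSO replicate 1 (0.0881). Ubqln1 lost it without inducible DMSO replicates 2 (0.0668) or 3 (0.1001) or parental DMSO replicates 2 (0.0836) or 3 (0.0597). The fibroblast markers differed between the lines too, with 8 of 10 called under DMSO and 7 of 10 under RSL, or 80% and 70%, beside 44.5% and 49% of the probe sets above the lowest 40%. They include Col1a1 at 0.73 and 1.0 and Pdgfrb at -0.67 and -0.33, and their part in the differences of the subunit genes was not tested.

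**Figure D5:**
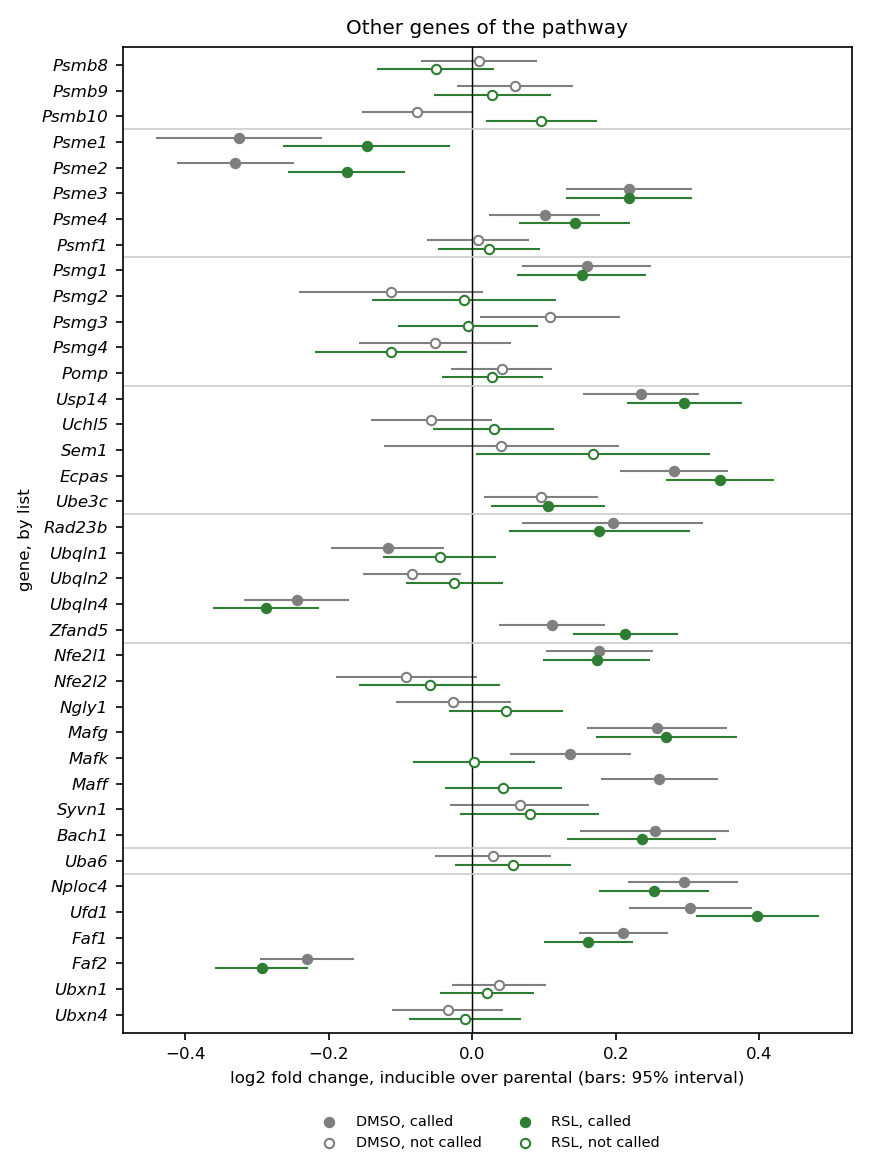
Log2 fold change of the inducible over the parental cells for the other genes of the pathway (rows, by list), with 95% confidence intervals from limma, under DMSO and RSL. Filled points are called, 20 under DMSO and 18 under RSL, with Psme1 and Psme2 to the left of 0 and Ufd1, Ecpas and Usp14 to the right.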

How the data were processed

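Total RNA was read on 12 Affymetrix Mm430_2.0 arrays, 3 per group. The authors deposited 1 table of log2 intensity values, for which probes were assigned to Entrez genes by a Custom CDF (version 10), corrected for background by RMA and quantile normalized. That the scale is log2 was read from the values' range. The summarisation of probes is not stated in the sources used here. The number of arrays limits the precision. The methods name a one-way analysis in JMP10 Genomics with nominal p-values. The methods name RNAPure peqGOLD and the labels Trizol for the extraction.

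Of 16539 rows, 64 are hybridization controls and were dropped, and 16475 were tested without a filter. The annotation given for the probe sets names 1 gene for 15780 of these, several for 0 and none for 695. The table has 0 columns of other samples. In limma 3.58.1 (R 4.3.3), the deposited log2 values of all 12 arrays were fitted with 4 group means, 8 residual degrees of freedom and moderated variances. From it 5 comparisons were drawn, p-values were adjusted by Benjamini-Hochberg over all 16475 probe sets, and calls were made at an adjusted p under 0.05. Standard errors, intervals and all p-values are limma's. An exact permutation test of 3 arrays against 3 cannot go below a two-sided p of 0.1 and was not used.

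The members and gene lists were chosen with earlier results of these data known. Named were up to 20 called members with the largest change per comparison, or the 5 with the smallest p where fewer than 5 were called, and of each list up to 4 genes per comparison. Values of every array are given for the 12 members called in the most comparisons. Coordinates and promoter sequences are RefSeq's for GRCm38.p6, matched by Entrez number or symbol. The script was tested on simulated data. The fit was repeated without the lowest 40% of probe sets by mean level, with the replicate number as block, with a trend of variance on intensity, after subtracting array medians, after another quantile normalization, on the 6 arrays of a comparison only and with each array left out. The one-way test of the methods was run with unadjusted and with Benjamini-Hochberg adjusted p-values.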

Additional observations from a re-analysis of the deposited data

How the results depend on the processing

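No member was called for the RSL effect in either line, or for the difference of the effects, under the limma alternatives or with any array left out. The methods' one-way analysis at its nominal threshold gave 2 members in inducible and 4 in parental cells, among 1913 and 1226 probe sets, and after Benjamini-Hochberg adjustment 0 members, among 1 and 0 probe sets. Between the lines, leaving out single arrays gave 12 to 14 members under DMSO, among 4132 to 4660 probe sets. Under RSL it gave 15 to 16 members, among 4707 to 5652 probe sets. The adjusted one-way analysis gave 11 and 11 members, with 3480 probe sets under RSL. Over all probe sets, leaving out single arrays gave 204 to 291 calls for RSL in inducible cells, 1 to 7 in parental cells, and 56 to 144 for the difference of the effects. Calls for RSL in parental cells, 5 in the main fit, were 8 with the filter, 10 with the intensity trend, 8 with the repeated quantile normalization and 2 with the 6 arrays alone. The repeated quantile normalization turned the member median for RSL in parental cells from -0.019 to 0.0081 and lowered that between the lines under RSL from 0.073 to 0.0465. The median between the lines under DMSO ranged from 0.0052 to 0.0543 over single arrays left out. For none of these changes was the cause tested.

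Of 644 values of named members under alternatives, 611 kept their direction and side of the threshold, 27 lost the call, 6 gained it and 0 reversed. The alternatives include the methods' one-way analysis at its nominal threshold, where the p-value is unadjusted, and all 6 gains came from it. Correlations of the deviations of same-numbered arrays ran from -0.296 to 0.214, and differently numbered arrays were not compared. The replicate numbers are thus not shown to pair the arrays. With the replicate number as a block, 0, 0, 0, 14 and 15 members were called in the 5 comparisons, among 330, 4, 76, 4604 and 5314 probe sets, and Psmd1 lost its call under RSL (adjusted p = 0.0704). For Psma8 and Psmb11, below the first quartile on every array, signal over background limits what can be seen.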
